A study of Drosophila melanogaster with 6 samples.

Results

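The cytochrome P450 family was followed in whole adult Drosophila melanogaster females of 2 genotypes. Its members were the genes whose platform symbol begins with Cyp, a family number, subfamily letters and a gene number, taken from probe sets that carry exactly 1 symbol. There were 81 such genes, on 83 probe sets, among 11982 genes and 18769 tested probe sets in all. Cyp12e1 and Cyp18a1 have more than 1 probe set, and for both the probe set with the brightest mean over the 6 arrays stands for the gene. Each of the 81 genes matched an entry of the RefSeq annotation, and all of them entered the test, because no filter on dim signals was applied.

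The groups were Calment1/4, a mutant isogenized into the CS10 background, and CanS, the wild-type stock Canton-S, with 3 one-colour Affymetrix arrays each, called biological replicates in the titles. Nothing says whether the 3 pools of a stock came from separate cultures, so p-values measure the spread between these pools. Every sample pooled 30 to 35 frozen females from cultures kept at 25 °C on standard medium, and the age of the flies is not given in the labels. Genotype and stock background changed together between the groups, so each difference below is a difference between the 2 stocks and cannot be told apart from one of background. The series' title ties the mutant to longevity and oxidative stress resistance, and the comparison asks which transcripts differ in it.

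Cytochrome P450s are haem enzymes that insert oxygen into small lipophilic molecules, drawing electrons from a reductase and cytochrome b5 in the endoplasmic reticulum or from adrenodoxin-like proteins in mitochondria. Insect genes fall into 4 clans. The CYP3 clan (Cyp6, Cyp9, Cyp28 and relatives) and the CYP4 clan hold many enzymes of gut, Malpighian tubule and fat body that handle plant toxins, insecticides and fatty acids, while the CYP2 and mitochondrial clans include the enzymes of ecdysone metabolism. Overexpression of single P450s is a known route to insecticide resistance in flies.

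Each probe set has 1 log2 signal in every array. A difference of 1 in log2 signal is a 2-fold change, and mean values carry the SD of 3 arrays. Arrays correlated with each other at 0.991 to 0.998. Of the 12 female markers, yolk protein, eggshell and germline genes, 9 were above 0 between the stocks (median 0.21), and 1 passed the threshold, the eggshell gene Cp18, which rose by 0.74 (adjusted p = 0.0435 in limma). The eggshell genes Cp16 (0.85) and Cp19 (0.70) were also higher without overlap but missed it. The yolk protein gene Yp1 averaged 13.98 in Calment1/4 and 14.03 in CanS, and 14 of 17 male markers measured lay at or below the 33.3rd percentile of signal. Over all probe sets Calment1/4 replicate 1 correlated with its group mates at 0.994, against 0.998 between them. For CanS replicate 3 the values were 0.995 and 0.996, against 0.997 between its mates. In the female markers both of these arrays stood apart from their group mates. Of the 12 female markers, 11 were below both group mates on each of these arrays, with a median of -0.43 against the mean of the mates in Calment1/4 replicate 1 and -0.46 in CanS replicate 3. How the P450 genes stood on these arrays, and how their differences moved without them, is given further on. In whole flies, fewer cells of a type and less RNA per cell cannot be told apart.

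P450 probe sets spanned nearly the whole range of signal. The percentile of a gene's mean among the 18769 probe sets is used here only to say how bright its probe set was, since probe sets differ in binding and their signals do not rank transcripts. The median P450 stood at the 59.3rd percentile, 9 genes were above the 90th percentile and 10 at or below the 33.3rd. The brightest was Cyp4g1, the oenocyte enzyme that makes cuticular hydrocarbons (99.93rd percentile), followed by Cyp6d5 (97.8) and Cyp4e2 (95.6). The dimmest was Cyp311a1, a gene tied to midgut membrane lipids (6.31), then Cyp12d1-d (8.13) and Cyp316a1 (8.97). By group the median percentile was 59.0 for 22 Cyp4 genes, 62.9 for 23 Cyp6 genes, 69.6 for 5 Cyp9 genes, 58.9 for 6 Cyp12 genes and 43.4 for the 25 others. None of the Cyp6 or Cyp9 genes was at or below the 33.3rd percentile, against 7 of the 25 others.

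**Figure D1:**
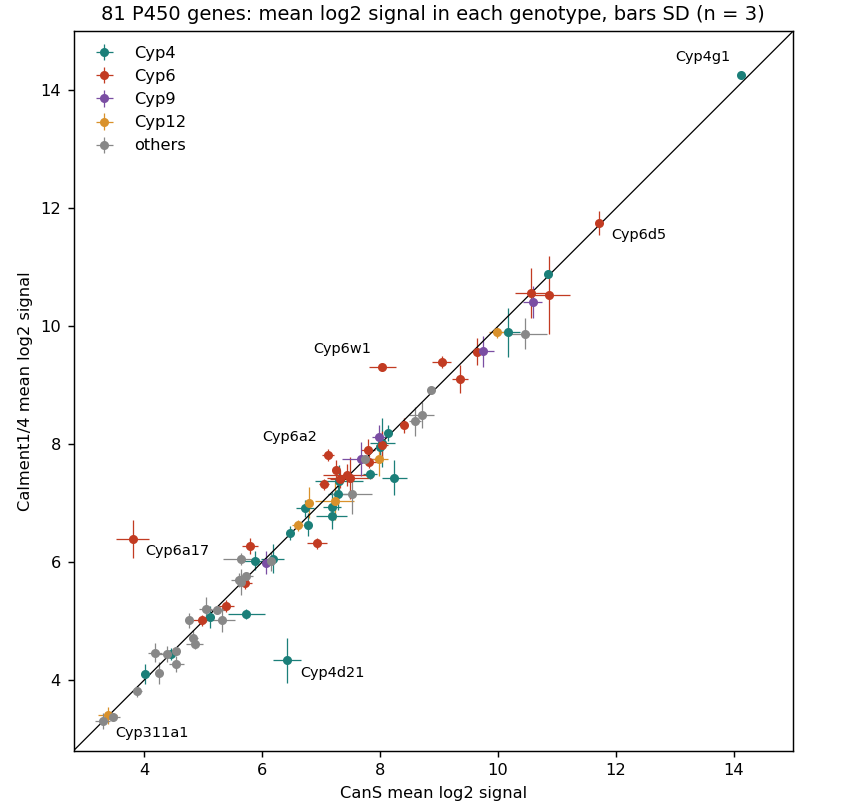
Mean log2 signal of each of the 81 P450 genes in Calment1/4 (vertical axis) and CanS (horizontal axis), with bars of 1 SD over 3 arrays and colour by group. Most genes lie along the line of equal signal from 3.30 to 14.18, while Cyp6a17, Cyp6w1 and Cyp6a2 lie above it and Cyp4d21 below it.

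Of the 81 genes, 4 passed an adjusted p of 0.05 in limma over all probe sets, 3 higher and 1 lower in Calment1/4. That is 4.94% of the family, beside 0.464% of all probe sets tested (0.266% higher and 0.197% lower). These shares depend on single arrays. Without Calment1/4 replicate 1 the family had 3 rises and 3 falls beside 281 of the 18769 probe sets, and without Calment1/4 replicate 2 it had 2 rises and 1 fall beside 38 of them, with the other single arrays left out in between. Cyp6a17, Cyp6w1 and Cyp6a2, all of the Cyp6 group and the CYP3 clan, rose, and Cyp4d21 of the CYP4 clan fell. Differences of at least 2-fold were found for 3 of the 4, all but Cyp6a2. The remaining 77 genes had differences between -0.81 (Cyp4ad1) and 0.48 (Cyp6a14) and did not pass. For 74 of these 77 the 95% confidence interval excluded a 2-fold change in either direction, and for 50 it lay within 0.5 of 0. The 3 whose interval reached past 2-fold, all on the lower side, were Cyp4ad1 (-1.19 to -0.43), Cyp28d1 (-1.03 to -0.15) and Cyp6a23 (-1.05 to 0.37). The median difference over the family was -0.03, with 36 genes above 0 and 45 below, beside a median of 0.00 over all probe sets tested.

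**Figure D2:**
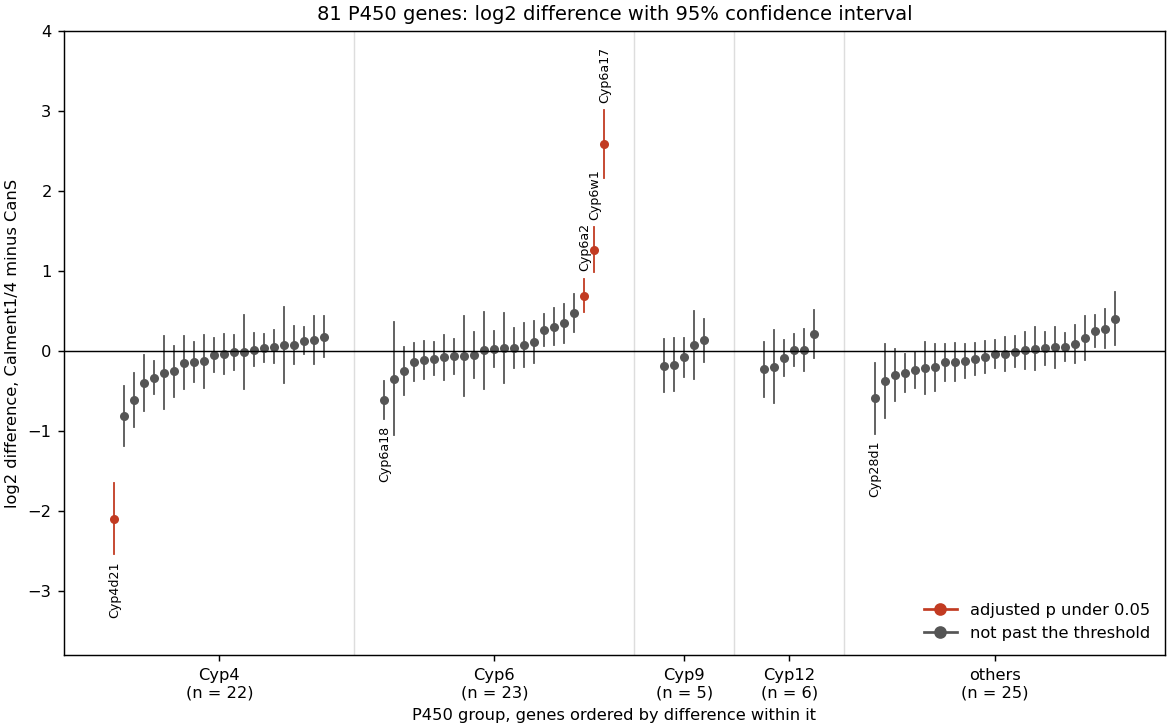
Difference of log2 signal, Calment1/4 minus CanS, for the 81 P450 genes with 95% confidence intervals from limma, arranged by group and ordered within it. The 4 genes past the threshold, Cyp4d21 at -2.09, Cyp6a2 at 0.70, Cyp6w1 at 1.27 and Cyp6a17 at 2.59, are in red, and no Cyp9, Cyp12 or other gene is among them.

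Cyp6a17, which flies need for normal temperature preference, showed the largest difference of the family. Its log2 signal was 6.52, 6.02 and 6.64 in the Calment1/4 arrays, against 3.65, 4.12 and 3.64 in the CanS arrays. The lowest Calment1/4 array stood far above the highest CanS array, and the CanS signals were close to the array floor (18.05th percentile, against the 54.0th in Calment1/4). The difference was 2.59 (SE 0.19, adjusted p = 0.000785 in limma), a 6.02-fold rise whose size depends on that floor. It ranged from 2.42 to 2.77 over all alternatives, and the call held in each of the 15. Without Calment1/4 replicate 1 and CanS replicate 3 it was 2.44.

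Cyp6w1 was bright in both stocks. It read 9.28, 9.25 and 9.38 in Calment1/4, against 8.18, 8.15 and 7.77 in CanS. The groups did not overlap, and the Calment1/4 arrays agreed closely (9.31 ± 0.07, against 8.03 ± 0.23 in CanS, SD, n = 3). The rise was 1.27 (SE 0.12, adjusted p = 0.00310 in limma), or 2.42-fold. It was 1.15 without Calment1/4 replicate 1 and CanS replicate 3. The call was lost with a term for replicate number added to the fit (adjusted p = 0.0520 in limma) and held in the other 14 alternatives.

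Cyp6a2, an enzyme that oxidises DDT and other insecticides and is induced by phenobarbital and caffeine, rose less. Its signal was 7.72, 7.81 and 7.92 in Calment1/4, against 7.13, 7.01 and 7.22 in CanS, with no overlap. The rise was 0.70 (SE 0.09, adjusted p = 0.0185 in limma), or 1.62-fold, and the SDs were 0.10 in Calment1/4 and 0.11 in CanS. The call was lost without any one of Calment1/4 replicates 2 and 3 or CanS replicates 1 and 2 (adjusted p between 0.0757 and 0.113 in limma, with 2 arrays left in that stock), while the difference stayed between 0.64 and 0.79 in every alternative. The upper end, 0.79, came without Calment1/4 replicate 1 and CanS replicate 3, where the call held. It was also lost with a term for replicate number added to the fit.

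Cyp4d21, also called sex-specific enzyme 1 and known from the fat body of the male head and from courtship, was the only P450 to fall past the threshold. Its signal was 4.77, 4.10 and 4.14 in Calment1/4, against 6.50, 6.62 and 6.16 in CanS. Every Calment1/4 array lay below every CanS array, and Calment1/4 replicate 1 was the highest of its group while CanS replicate 3 was the lowest of its own. The difference was -2.09 (SE 0.19, adjusted p = 0.00274 in limma), so the signal was 4.27-fold lower in Calment1/4, where it was dim (30.4th percentile, against the 54.2nd in CanS). Without Calment1/4 replicate 1 and CanS replicate 3 it was -2.44, and the call held in all 15 alternatives. Of 9 fat body markers measured, 7 were below 0 and 1 fell past the threshold, the female fat body gene fit at -2.17. FASN1, a fatty acid synthase, was at 0.27 with no overlap and Apoltp at 0.08, neither past it. The summed linear signal of all 9 fat body markers spanned 17577 to 18078 in Calment1/4, against 18833 to 20365 in CanS. Their part in the result for Cyp4d21 was not tested.

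**Figure D3:**
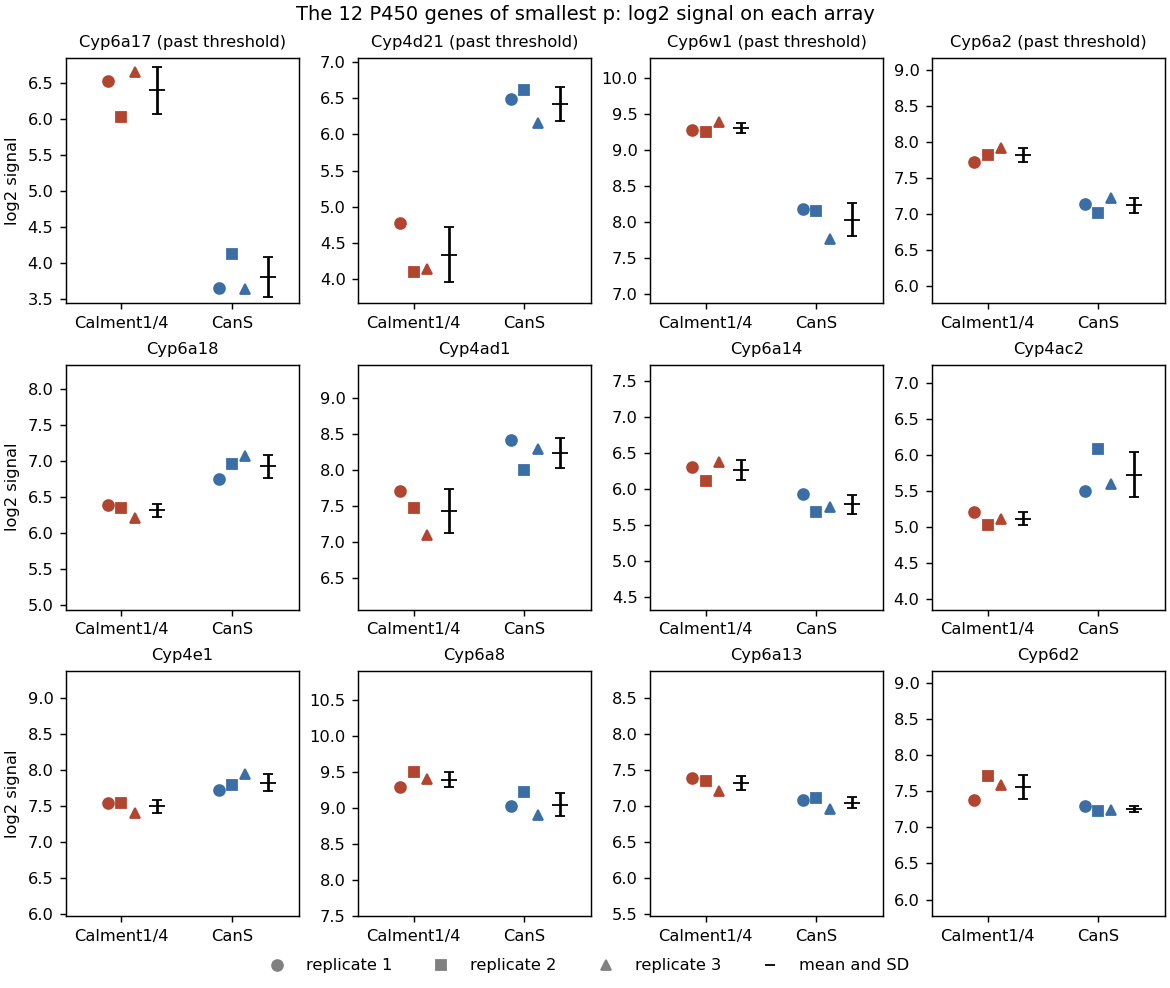
Log2 signal on each of the 6 arrays for the 12 P450 genes of smallest p, with Calment1/4 at the left and CanS at the right of each panel, symbols for replicates and bars for the mean and SD (n = 3). Vertical axes differ between panels, and the groups do not overlap in any of the 12.

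Groups also failed to overlap in members that missed the threshold. In all, 15 of 81 genes (18.5%) had the 3 arrays of one stock on one side of the other, 9 with Calment1/4 higher and 6 with it lower, beside 12.6% of all probe sets tested (6.36% higher and 6.27% lower). An unadjusted p under 0.05 was reached by 19 of 81 genes (23.5%), 10 higher and 9 lower, beside 7.67% of all probe sets (3.71% higher and 3.96% lower).

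Within the Cyp6 group, 3 of 23 genes rose, none fell and 20 did not pass. The group's median difference was 0.03, with 13 genes above 0 and 10 below. Groups did not overlap in 7 genes with Calment1/4 higher and in 1 with it lower. Besides the 3 that rose, the higher ones were Cyp6a14 (0.48), Cyp6a8 (0.35), Cyp6d2 (0.31) and Cyp6a13 (0.27). Cyp6a14 read 6.31, 6.12 and 6.38 in Calment1/4, against 5.94, 5.68 and 5.75 in CanS, and missed the threshold (adjusted p = 0.128 in limma). Cyp6a13, which lies beside it on arm 2R, read 7.39, 7.35 and 7.21, against 7.08, 7.11 and 6.96 in CanS. In both genes the Calment1/4 arrays were all above the CanS arrays, by a smaller step in Cyp6a13. Cyp6a8, induced by caffeine and phenobarbital like Cyp6a2, averaged 9.39 ± 0.11 in Calment1/4 and 9.05 ± 0.16 in CanS (SD of 3 arrays). Cyp6d2, needed for normal resistance to camptothecin, averaged 7.56 ± 0.17 in Calment1/4, against 7.25 ± 0.04 in CanS.

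The 1 Cyp6 gene below CanS without overlap was Cyp6a18. It read 6.39, 6.35 and 6.21 in Calment1/4, against 6.75, 6.96 and 7.07 in CanS. The difference was -0.61 (SE 0.10) and came closest to the threshold among the genes that missed it (adjusted p = 0.0608 in limma). It passed with array weights (adjusted p = 0.0144 in limma) and without Calment1/4 replicate 1 (adjusted p = 0.0357 in limma).

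Several Cyp6 genes with known roles did not pass the threshold and overlapped between the stocks. Cyp6g1, whose overexpression gives resistance to DDT and neonicotinoids, averaged 9.57 ± 0.23 in Calment1/4 and 9.65 ± 0.09 in CanS (SD of 3 arrays), a difference of -0.08 with a 95% interval from -0.35 to 0.20. Its neighbours were no farther apart, Cyp6g2 at -0.06 and Cyp6t3, an ecdysone-synthesis enzyme of the larval prothoracic gland, at 0.03. Cyp6a20, which affects aggression in males, was at -0.24 (-0.54 to 0.06) and between -0.38 and -0.16 with 1 array left out. The intervals of these 4 genes exclude a 2-fold change but not smaller ones.

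The Cyp4 group had 1 fall, no rise and 21 genes that did not pass. Its median difference was -0.04, with 8 genes above 0 and 14 below, and 5 of its 22 genes reached an unadjusted p under 0.05, all of them lower in Calment1/4. Groups did not overlap in 4 genes with Calment1/4 lower and in 1 with it higher. Apart from Cyp4d21 the lower ones were Cyp4ad1 (-0.81), Cyp4ac2 (-0.61) and Cyp4e1 (-0.33). Cyp4ad1 read 7.71, 7.48 and 7.11 in Calment1/4, against 8.42, 8.01 and 8.29 in CanS, and missed the threshold (adjusted p = 0.108 in limma). It passed without Calment1/4 replicate 1 (-0.95, adjusted p = 0.0236 in limma) and with array weights (adjusted p = 0.0263 in limma). Cyp4ac2 read 5.21, 5.03 and 5.12 in Calment1/4, against 5.51, 6.08 and 5.61 in CanS, with the CanS arrays more spread than the mutant ones. It passed with array weights alone (adjusted p = 0.0390 in limma). The other genes of its tandem group were at 0.08 (Cyp4ac1) and -0.14 (Cyp4ac3), with overlap, and the difference between these genes was not tested.

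The 1 Cyp4 gene higher without overlap was Cyp4g1. It read 14.23, 14.26 and 14.26 in Calment1/4, against 14.11, 14.11 and 14.13 in CanS. These were among the tightest replicates of the family, yet the step was only 0.13 (SE 0.07) and did not pass (adjusted p = 0.770 in limma). The mean of Cyp4g1, 14.18, lay close to the highest mean of all probe sets tested, 14.46. Whether step and spread were compressed near the top of the scale was not tested. Of the 6 oenocyte markers measured, Cyp4g1 included, 5 were above 0 and none passed. Their summed linear signal spanned 35648 to 37167 in Calment1/4, against 30821 to 33110 in CanS. Cyp4g1 was the brightest of the 6, so it weighs most in these sums and they partly restate its own step. Cyp4g15, its relative expressed in the nervous system, was at 0.18, Cyp4e3, which affects permethrin tolerance, at 0.14, and the bright Cyp4e2 at 0.04. Cyp4p1, also bright, was at -0.27 with overlapping groups.

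None of the 5 Cyp9 genes passed (median -0.07). Cyp9f2, the brightest (94.2nd percentile), averaged 10.40 ± 0.27 in Calment1/4 and 10.58 ± 0.16 in CanS (SD of 3 arrays). Cyp9b2 was at -0.17, Cyp9h1 at -0.07, Cyp9b1 at 0.08 and Cyp9c1 at 0.14, and the groups overlapped in all 5. None of the 6 mitochondrial Cyp12 genes passed either (median -0.03), again with overlap throughout. Cyp12a4, which gives lufenuron resistance when overexpressed, was at -0.09 (95% interval -0.31 to 0.14), and its neighbour Cyp12a5, linked to nitenpyram resistance, at -0.19. Cyp12c1 was at -0.23 and Cyp12b2 at 0.22. The probe set named for Cyp12d1-d alone was near the floor in both stocks (3.40 ± 0.15 in Calment1/4, against 3.38 ± 0.17 in CanS). A further probe set that carries both Cyp12d1-d and Cyp12d1-p, close copies of each other, is no member by the rule and differed by -0.05.

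Among the 25 other genes none passed (median -0.03), with 10 above 0 and 15 below. All 4 Cyp28 genes, of a family studied for alkaloid tolerance in cactus-feeding relatives, were below 0, at -0.59 (Cyp28d1), -0.27 (Cyp28d2), -0.24 (Cyp28c1) and -0.20 (Cyp28a5). Cyp28d1 read 10.16, 9.79 and 9.67 in Calment1/4, against 10.13, 10.39 and 10.86 in CanS. Calment1/4 replicate 1 overlapped with CanS, and the adjusted p was 0.425 in limma. With Calment1/4 replicate 1 and CanS replicate 3 left out the 4 genes were at -0.53 (Cyp28d1), -0.31 (Cyp28d2), -0.21 (Cyp28c1) and -0.29 (Cyp28a5), again with none past the threshold. Cyp309a1 (-0.37) and Cyp313a1 (-0.21) were lower as well, and Cyp313a3 (0.41) and Cyp309a2 (0.28) higher, none past the threshold. The groups did not overlap for Cyp310a1, a gene that affects Wingless signalling, at 0.25, or for Cyp28c1, the only one of these 25 genes below CanS on every array.

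Members of the CYP2 and mitochondrial clans with roles in hormone turnover and cuticle differed little. Cyp18a1, which inactivates ecdysone, averaged 8.92 ± 0.06 in Calment1/4 and 8.87 ± 0.04 in CanS (SD of 3 arrays), and its dimmer probe set was at -0.0021. Cyp301a1, needed for the adult cuticle, was at 0.16, Cyp303a1, of sensory bristles, at -0.08 and Cyp305a1 at -0.0045. Neither clan had a member past the threshold, of 4 and 8 genes with a Cyp symbol. Ecdysone-synthesis P450s named without the Cyp prefix (dib, sad, shd, spo and spok) are not in these counts or in the clan medians. Their differences are given further on. By clan the medians were -0.05 for 37 CYP3 genes, -0.04 for 32 CYP4 genes, -0.04 for the CYP2 clan and 0.02 for the mitochondrial clan.

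P450 genes arise by local duplication, so position was examined next. In the RefSeq gene order 43 of the 81 genes formed 15 clusters, taking as 1 cluster P450 genes with at most 2 other genes between neighbours. Cyp6a17 lies in the largest, 9 genes of arm 2R in the order Cyp6a22, Cyp6a17, Cyp6a23, Cyp6a19, Cyp6a9, Cyp6a20, Cyp6a21, Cyp6a8 and Cyp317a1. It was the only one of the 9 past the threshold, and the cluster's median difference was 0.01. The genes on either side were at -0.05 (Cyp6a22, 95% interval -0.34 to 0.24) and -0.34 (Cyp6a23). Cyp6a23 read 11.28, 10.18 and 10.10 in Calment1/4, against 10.56, 10.76 and 11.26 in CanS. Its groups overlapped fully, with Calment1/4 replicate 1 and CanS replicate 3 the highest of their groups, and without these arrays the difference was -0.52 (SE 0.10, adjusted p = 0.0792 in limma). Farther along, Cyp6a19 was at 0.01, Cyp6a9 at 0.04, Cyp6a21 at -0.06 and Cyp317a1 at 0.09. The other 3 genes past the threshold are in no such cluster. Of the 6 nearest measured genes around each of the 4, 3 on either side, none passed, and their differences lay between -0.34 and 0.09 around Cyp6a17, -0.31 and 0.29 around Cyp4d21, -0.29 and 0.32 around Cyp6w1, and -0.12 and 0.23 around Cyp6a2. The nearest measured genes were not always adjacent. On 1 side of Cyp6w1, 11, 17 and 18 other genes lay in between, and on 1 side of Cyp4d21, 2, 5 and 6. By arm, 3 of 33 P450 genes on 2R rose and 1 of 13 on 2L fell, and none of 6 on 3L, 15 on 3R or 14 on X passed.

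**Figure D4:**
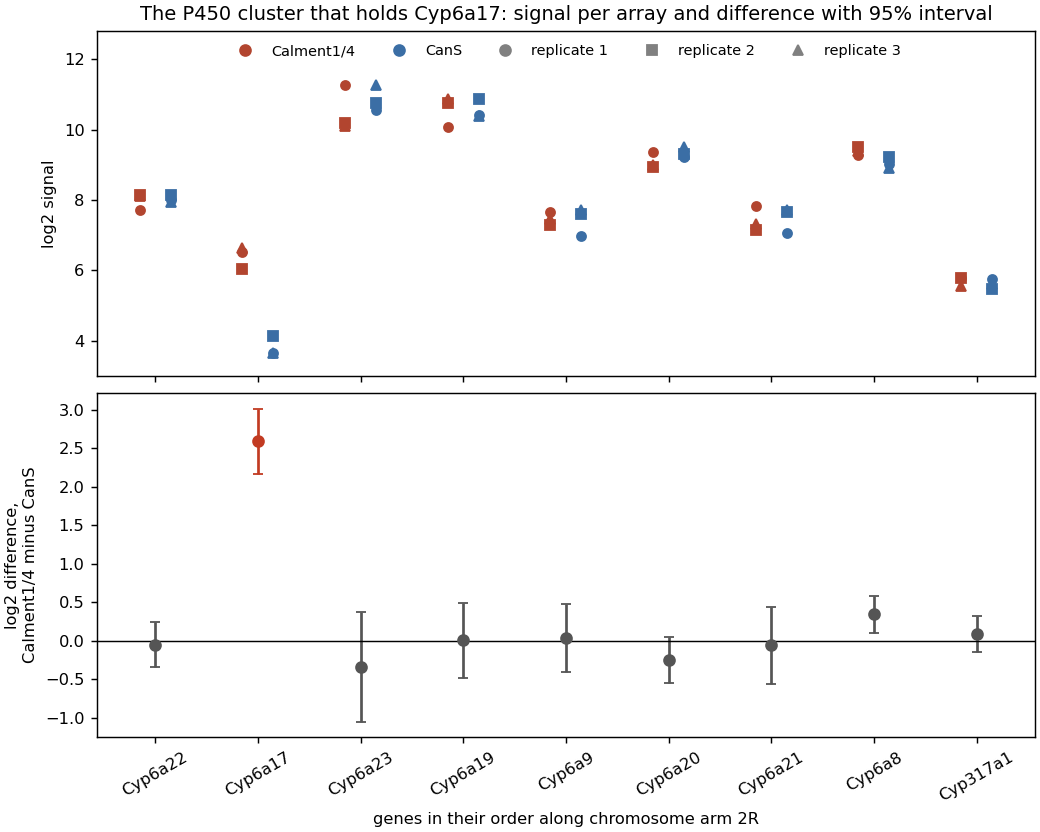
The 9 P450 genes of the Cyp6a17 cluster in their order along arm 2R, with log2 signal on each array above (Calment1/4 at the left of each gene, CanS at the right) and the difference Calment1/4 minus CanS with its 95% confidence interval below. Cyp6a17 stands at 2.59, and the other 8 lie between -0.34 and 0.35.

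Many P450 genes were higher on Calment1/4 replicate 1 and CanS replicate 3 than on the other arrays of each stock. In 39 of 81 members (48.1%) Calment1/4 replicate 1 was above both its group mates and CanS replicate 3 was above both of its own, beside 21.4% of all probe sets tested. The opposite pattern, both arrays below their mates, was seen in 8 members (9.88%), beside 21.8% of all probe sets. The median of the members against the mean of the mates was 0.15 in Calment1/4 replicate 1 and 0.11 in CanS replicate 3, against 0.03 and -0.02 over all probe sets. Across the 81 genes the departures of these arrays correlated at 0.57, and at 0.54 across all probe sets. The latter was the highest value among all pairs of a Calment1/4 and a CanS array, so it describes 2 arrays and is not a test.

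Counts of members above their mates on both arrays varied by group, which was not tested. All 5 Cyp9 genes were above on both arrays, as were 4 of 6 Cyp12 genes, 13 of 22 Cyp4 genes, 9 of 25 others, all 4 Cyp28 genes among them, and 8 of 23 Cyp6 genes. Cyp6a23 moved most, 1.14 above its mates in Calment1/4 replicate 1 and 0.60 in CanS replicate 3. Next by the first of these came Cyp4d1 (0.72 and 0.37) and Cyp4p1 (0.72 and 0.34). Cyp6a19 ran the other way at -0.72 and -0.23, although it lies beside Cyp6a23, and Cyp6a22 and Cyp6a8 of the same cluster were also below on both arrays. Of the genes past the threshold none was above or below on both. Cyp4d21 was 0.65 above its mates in Calment1/4 replicate 1 and at -0.40 against its mates in CanS replicate 3, towards the other stock in each case. With both arrays left out the same 4 genes passed, and the other 77 lay between -0.92 (Cyp4ad1) and 0.44 (Cyp6a14). The difference of 15 of the 81 genes moved by over 0.1, and 10 changed sign. Cyp4p1 was then at -0.40, Cyp4ac2 at -0.72 and Cyp304a1 at -0.43, farther from 0 than with all arrays, while Cyp12b2 was at 0.06 and Cyp313a3 at 0.28, nearer to it. Cyp6a19 was at 0.17, Cyp12d1-d at 0.16 and Cyp6d5 at -0.07. Among the marker lists, 4 of 13 midgut, 4 of 11 Malpighian tubule (Cyp6g1 among them), 2 of 9 fat body and 0 of 6 oenocyte markers were above on both arrays, while 11 of 12 female markers were below. Their part in the P450 pattern was not tested.

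**Figure D5:**
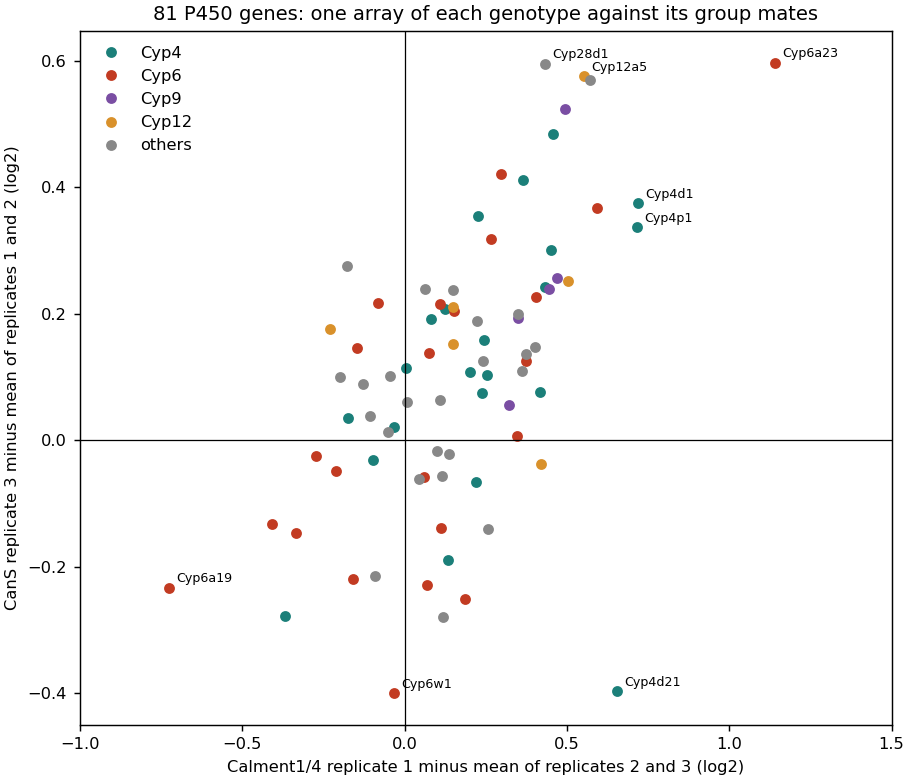
Departure of Calment1/4 replicate 1 from the mean of Calment1/4 replicates 2 and 3 (horizontal axis, log2) against that of CanS replicate 3 from the mean of CanS replicates 1 and 2 (vertical axis, log2), 1 point per P450 gene, coloured by group. The 5 Cyp9 genes all lie above 0 on both axes, Cyp6a23 is farthest out at 1.14 and 0.60, and Cyp6a19 lies at the lower left.

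Between the stocks, digestive and excretory markers stood as follows beside the P450 results. Of 13 midgut markers 12 were below 0 with a median of -0.27, none past the threshold. Lower without overlap were 6 of the 13 and higher none, beside 6.27% and 6.36% of all probe sets tested. Differences of at least 2-fold were seen in 2, Mal-A1 (-1.47) and Npc2e (-1.31). The summed linear signal of all 13 spanned 88124 to 90009 in Calment1/4, against 97298 to 99718 in CanS. Of 11 Malpighian tubule markers, the family member Cyp6g1 among them, 7 were below 0 (median -0.08), none past the threshold, with sums of 10256 to 10916 in Calment1/4, against 10755 to 11131 in CanS. Without Cyp6g1 it was 6 of 10, with a median of -0.09. The marker lists were chosen with earlier results of these data known. The part of gut or tubule content in the P450 differences was not tested.

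The genes that serve or steer P450s were read from the same fit. None of 30 measured partners and regulators passed (median 0.04, 20 above 0 and 10 below), beside 0.464% of all probe sets. Among 5 genes of the redox list Cyt-b5, the electron donor cytochrome b5, was at 0.09. Cyt-b5-r, a cytochrome b5-related gene, was at -0.17, and the mitochondrial ferredoxins Fdx1 and Fdx2 at 0.09 and -0.06. The fifth, ND-13A, is a respiratory chain subunit rather than a P450 partner and was at -0.08. Cyt-b5-r read 11.17, 10.47 and 10.54 in Calment1/4, against 10.58, 10.83 and 11.28 in CanS, with Calment1/4 replicate 1 and CanS replicate 3 the highest of their groups, as for Cyp6a23. Among 8 genes of haem synthesis, Alas, the first enzyme, was at 0.18 and Uros1 at -0.18. Of 5 ecdysone-synthesis P450s named without the Cyp prefix, spo was at 0.31, sad at 0.18, shd at 0.16, dib at 0.05 and spok, near the floor, at -0.04. Among 12 regulators, Keap1, the inhibitor of the detoxification factor CncC, was at 0.21 with no overlap, cnc itself at 0.10 with no overlap, the xenobiotic receptor Hr96 at 0.01 and the juvenile hormone receptor Met at -0.25 with no overlap. The other juvenile hormone receptor, gce, was at 0.18 with no overlap. In all 7 of the 30 had no overlap, 5 higher and 2 lower, beside 12.6% of all probe sets. Their adjusted p ran from 0.520 for Keap1 upwards in limma.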

How the data were processed

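Biotin-labelled cRNA from total RNA of pooled whole females was hybridised to 1-colour Affymetrix arrays, per the labels' protocols. The authors deposited 1 log2 value for each probe set and array. Tools listed in the submitters' processing notes are affy 1.36.0, RMA and MAS5, with no roles given, so the step that made the log2 values is not known. Their medians differ little between arrays, as after normalization, which hides any shift common to most transcripts. Detection calls were not used here.

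The table holds 18952 probe sets, of which 183 control probe sets were left out. Symbols came from the platform's annotation (13647 probe sets with 1 symbol, 402 with several, 4720 with none), and chromosome arm and gene order from RefSeq (Release 6 plus ISO1 MT). No coordinates are printed, because the labels name no genome build. Whether probes of a P450 also match close relatives was not checked.

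The fit over all probe sets used limma 3.58.1 (R 4.3.3), with lmFit, eBayes and genotype as the only term, two-sided, with Benjamini-Hochberg adjustment over 18769 probe sets and a threshold of 0.05. The step was tested on simulated data, where it called 36.7% of changes of 0.5 in log2 signal, 87.8% of changes of 1 and 97.6% of changes of 2. The simulated noise was drawn independently for each probe set and array. It lacked the departures shared by Calment1/4 replicate 1 and CanS replicate 3, so the shares called in the real arrays can differ. Precision is limited by the number of arrays.

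The genes named are those past the threshold, the 3 brightest, 2 largest rises and 2 largest falls of each group, the 12 of smallest p, a list with textbook roles and the cluster of any gene past the threshold. Genes named outside this rule were chosen after their values were seen. They are Cyp4d1, Cyp4ac1, Cyp4ac3, Cyp316a1, Cyp9h1, Cyp12e1, Cyp304a1, Cyp28a5, Cyp28c1 and Cyp28d2. The members and lists were chosen with earlier results of these data known. Of the partner lists' genes, Cpr, the P450 reductase, dare, phm, Ho and a further haem gene had no probe set with that name alone and are not analysed here. Marker genes listed but not measured were Vm26Ab, Vml and nos (female), Mst57Db (male), Uro and Vha68-2 (tubule), and to (fat body). In the midgut list they were deltaTry, gammaTry, Amy-d and Amy-p, and in the oenocyte list Cpr.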

Additional observations from a re-analysis of the deposited data

How the results depend on the processing

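The 15 alternatives were repeated quantile normalization, median centring, a filter on probe sets at or below the 33.3rd percentile (which left 71 of 81 P450 genes), array weights, eBayes with its trend and robust options, a replicate block, an adjusted p of 0.01, averaging the probe sets of a gene, each array left out in turn, and Calment1/4 replicate 1 and CanS replicate 3 left out together. No pseudocount was tried, since the values are log2. The calls of Cyp6a17 and Cyp4d21 held in all 15, that of Cyp6w1 in 14 and that of Cyp6a2 in 9. With the replicate block 1 P450 gene rose instead of 3 and 1 fell, with adjusted p = 0.0520 for Cyp6w1 and 0.111 for Cyp6a2 in limma, and 30 probe sets passed in all instead of 87. Deviations of same-numbered arrays from their group means correlated at r between -0.43 and 0.20. With 3 arrays a stock these values depend on each other, so they cannot show whether the numbers pair the samples. With array weights 3 rose and 4 fell, and 337 probe sets passed. Leaving out 1 array gave 2 to 3 rises and 1 to 3 falls, and 38 to 281 probe sets in all. The 3 falls, Cyp4d21, Cyp4ad1 and Cyp6a18, came without Calment1/4 replicate 1, which gave 281 probe sets. It was 38 without Calment1/4 replicate 2, 45 without replicate 3 and 54 without CanS replicate 3. Leaving out both arrays gave 228 probe sets, a threshold of 0.01 gave 38 and averaging probe sets by gene gave 57 of 11982 genes; the 4 P450 calls held under the first and the last. The cause of these shifts was not tested. Of the 44 named genes not past the threshold, 3 passed under some alternative (Cyp4ad1, Cyp6a18 and Cyp4ac2) and 13 crossed 0 in at least 1. The sign of 3 group medians depended on single arrays. That of Cyp6 was 0.03 with all arrays, -0.06 without CanS replicate 1, -0.02 without Calment1/4 replicate 1 and -0.01 with array weights. That of Cyp9 (-0.07) was 0.01 without Calment1/4 replicate 3, and that of Cyp12 (-0.03) was 0.03 without CanS replicate 3. With 3 arrays a stock, the absence of a call does not show equal levels, and folds against dim signals depend on the floor.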
